A study of Mus musculus with 3 samples.

Results

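The cells described here are those numbered 5 in the deposited clustering, a small group marked by interferon-response genes. They were taken by cluster number alone and were 233 of the 7598 CD45-positive cells sequenced from mouse thalamus. Type I interferons are secreted antiviral cytokines that bind the Ifnar1 and Ifnar2 receptor chains on nearly every cell. The kinases of the receptor, Jak1 and Tyk2, phosphorylate STAT proteins, which join Irf9 in a complex that binds the interferon-stimulated response element (ISRE) in the promoters of antiviral genes. Small numbers of microglia with such a program are known from development, ageing and disease, beside the homeostatic and inflammatory states.

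Each of 3 droplet libraries came from 1 group of mice, 4 hours after an intracerebroventricular injection. The cKO IL-33 mice were heterozygous for Cx3cr1-creER, homozygous for a floxed ST2 allele and given IL-33, an IL-1 family cytokine whose receptor chain ST2 is encoded by Il1rl1. The WT IL-33 mice were Cx3cr1-creER heterozygotes given IL-33, and the WT vehicle mice were Cx3cr1-creER heterozygotes given vehicle. All groups thus carried the recombinase, whose promoter is that of the fractalkine receptor gene, active in microglia and related macrophages. Ages, the number of animals per library and the deleted exons are not stated in the labels, and no vehicle library with floxed alleles was analysed here.

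Cluster 5 held 86 of 2687 cells in cKO IL-33 (3.201%, 2.57 to 3.94%), 59 of 2202 cells in WT IL-33 (2.68%, 2.05 to 3.44%) and 88 of 2709 cells in WT vehicle (3.25%, 2.61 to 3.99%). All intervals are exact 95% intervals (binomial for shares, Poisson for levels, conditional binomial for ratios) and cover counting error only. Because each group is a single library, differences between groups have no replicates behind them and carry no test. The clusters had been formed from the same counts, so levels of cluster 5 beside other clusters are a description. The comparator was cluster 0 in cKO IL-33 (1374 cells) and in WT vehicle (1327 cells). In WT IL-33 it was cluster 1 (1815 cells), which held 82.4% of that library.

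The median cluster 5 cell held 5493, 4692 and 6407 UMIs (unique molecular identifiers, 1 per captured transcript) in cKO IL-33, WT IL-33 and WT vehicle, against 4881.5, 4064 and 5305 in the comparators. Levels are in CPM, where a gene's UMIs are set over all UMIs of a cluster's cells in a library. Those totals came to 612524, 342141 and 697809 for cluster 5. The deposited sex call was female for all 86 cluster 5 cells of cKO IL-33 and male for all 88 of WT vehicle, so that sex and group cannot be told apart between them. In WT IL-33, 31 were called female and 28 male. Of the 2 barcodes seen in more than 1 library, 0 belonged to cluster 5. Il1rl1 had 6, 2 and 8 UMIs in cluster 5, and such 3′ tags check nothing about a deletion whose exons are unknown.

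The cells carried microglial and interferon-response markers together. The microglial markers Tmem119, P2ry12, Sall1, Siglech, Fcrls, Cx3cr1 and Gpr34 had UMIs in cluster 5 of every library. Tmem119, a microglial surface protein, was at 1541 against 1624 CPM in cKO IL-33, 938 against 960.0 in WT IL-33 and 1277 against 1394 in WT vehicle (cluster 5 against comparator). The 8 interferon-response markers (Cxcl10, Ifit3, Ifit2, Rsad2, Isg15, Ifit1, Slfn5 and Cxcl9) summed to 3244, 12334 and 2923 CPM, against 47.2, 319 and 72.6 CPM. Of the markers of other cells, the 6 erythroid ones had 0 UMIs in cluster 5 of every library. The 8 T cell markers held 3, 0 and 0 UMIs and the 8 NK markers 1, 0 and 0, with Cd3e, Trac and Ncr1 at 0. The 8 neutrophil markers summed to 147, 158 and 96.0 CPM, against 149, 136 and 112 CPM in the comparators, nearly all of it Csf3r, with S100a8 at 0. The 8 plasmacytoid dendritic cell markers, which include Bst2 and Siglech, summed to 2875, 2370 and 2584 CPM, against 2256, 1315 and 2403 CPM. Those of the oligodendrocyte lineage summed to 121, 120 and 139 CPM, against 94.6, 75.5 and 96.9 CPM. Conventional dendritic cell markers summed to 37.5, 292 and 48.7 CPM, against 39.9, 394 and 43.0 CPM. The part of such cells in these sums was not tested. The monocyte and border macrophage lists are given beside the genes they touch.

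The promoters of 5 of these markers are shown because the ISRE is where the complex of STAT proteins with Irf9 acts and because the chemokines Cxcl10 and Cxcl9 differ in it. Each sequence is the 250 bases before the start in RefSeq (GRCm38.p6), 5′ to 3′ on the strand of the gene. Capitals mark the ISRE core searched, GAAA followed by any 2 bases and GAAA, on either strand. The windows lie at chr4:156200819-156201068 (minus strand), chr19:34583279-34583528 (plus), chr19:34640639-34640888 (plus), chr5:92348890-92349139 (minus) and chr5:92328080-92328329 (minus).
Isg15: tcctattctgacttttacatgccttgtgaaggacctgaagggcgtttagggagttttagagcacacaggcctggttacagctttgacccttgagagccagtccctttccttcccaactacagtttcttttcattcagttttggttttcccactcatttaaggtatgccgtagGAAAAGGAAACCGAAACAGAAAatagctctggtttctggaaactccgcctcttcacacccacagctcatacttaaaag
Ifit3: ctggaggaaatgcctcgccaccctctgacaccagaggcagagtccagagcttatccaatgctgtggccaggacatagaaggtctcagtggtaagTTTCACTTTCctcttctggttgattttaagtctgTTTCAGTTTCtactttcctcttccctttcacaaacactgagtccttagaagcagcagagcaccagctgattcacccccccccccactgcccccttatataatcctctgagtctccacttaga
Ifit1: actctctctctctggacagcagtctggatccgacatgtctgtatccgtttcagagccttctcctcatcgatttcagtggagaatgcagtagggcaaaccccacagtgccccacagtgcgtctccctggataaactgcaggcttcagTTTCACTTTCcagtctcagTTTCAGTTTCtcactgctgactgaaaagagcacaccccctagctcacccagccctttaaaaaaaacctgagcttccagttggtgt
Cxcl10: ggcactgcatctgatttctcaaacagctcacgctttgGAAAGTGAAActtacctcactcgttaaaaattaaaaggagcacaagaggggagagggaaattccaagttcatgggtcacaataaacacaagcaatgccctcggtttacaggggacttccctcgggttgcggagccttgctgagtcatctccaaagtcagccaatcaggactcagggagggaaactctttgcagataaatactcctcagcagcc
Cxcl9: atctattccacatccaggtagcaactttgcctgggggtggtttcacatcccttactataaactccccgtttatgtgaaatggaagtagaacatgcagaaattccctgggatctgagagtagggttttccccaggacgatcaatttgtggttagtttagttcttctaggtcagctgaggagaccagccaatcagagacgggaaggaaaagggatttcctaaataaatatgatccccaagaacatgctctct
Isg15 held 3 overlapping copies, between 78 and 57 bases before the start. Ifit3 and Ifit1 each held 2 copies, all on the opposite strand. Cxcl10 held 1 copy, 213 to 204 bases before its start, and Cxcl9 had no match. A core of NF-kB sites, GGG, any 2 bases, TT, any base and CC, was found once each in 3 of the 5 windows, from 159 bases before the start in Ifit1, on the opposite strand, 103 in Cxcl10 and 130 in Cxcl9, and it overlapped no ISRE core there.

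Over windows from 250 bases before to 50 after the start, the ISRE core was in 6 of the 8 markers (not in Ifit2 or Cxcl9), against 1079 of all 27025 genes with a window (3.99%). Of the 80 genes at least 2-fold higher in cluster 5 of all 3 libraries, 67 had a window and 29 of these (43.3%) held it, against 4.84%, 5.01% and 5.02% of the genes tested in cKO IL-33, WT IL-33 and WT vehicle. The core of the gamma-activated sequence, TTC, any 3 bases and GAA, was in 11 of the 67 (16.4%), against 7.73%, 8.22% and 7.72%. The NF-kB core was in 7 of the 67 (10.4%), against 6.72%, 7.21% and 6.96%. A match describes letters and not a bound site.

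Ifit3, Slfn5 and Isg15 were seen in most cluster 5 cells of every library. Ifit3, an IFIT family protein of the antiviral response, was at 553 against 7.50 CPM in cKO IL-33, 962 against 14.4 in WT IL-33 and 545 against 14.3 in WT vehicle (cluster 5 against comparator). It had a UMI in 74 of 86, 55 of 59 and 73 of 88 cluster 5 cells, against 4.22%, 3.64% and 7.01% of comparator cells. In every library the cluster 5 share was far above that of its comparator, and the ratio of levels was 73.8-fold (56.3 to 98.2), 66.7-fold (54.8 to 81.4) and 38.1-fold (30.9 to 47.2).

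Slfn5, a Schlafen family member, was seen in 89.5%, 93.2% and 88.6% of cluster 5 cells, against 8.73%, 6.01% and 14.4%. Isg15, a ubiquitin-like protein conjugated to other proteins in the antiviral response, was at 387 against 9.88 CPM in cKO IL-33, 1207 against 41.8 in WT IL-33 and 361 against 12.1 in WT vehicle. The remaining antiviral markers were seen in fewer cells than Ifit3 in each library. Ifit2 was seen in 70.9%, 86.4% and 56.8% of cluster 5 cells, Ifit1 in 37.2%, 89.8% and 34.1%, and Rsad2 (viperin, which makes a chain-terminating nucleotide) in 50%, 72.9% and 42.0%. WT IL-33 had the highest share for each of the 3.

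**Figure D1:**
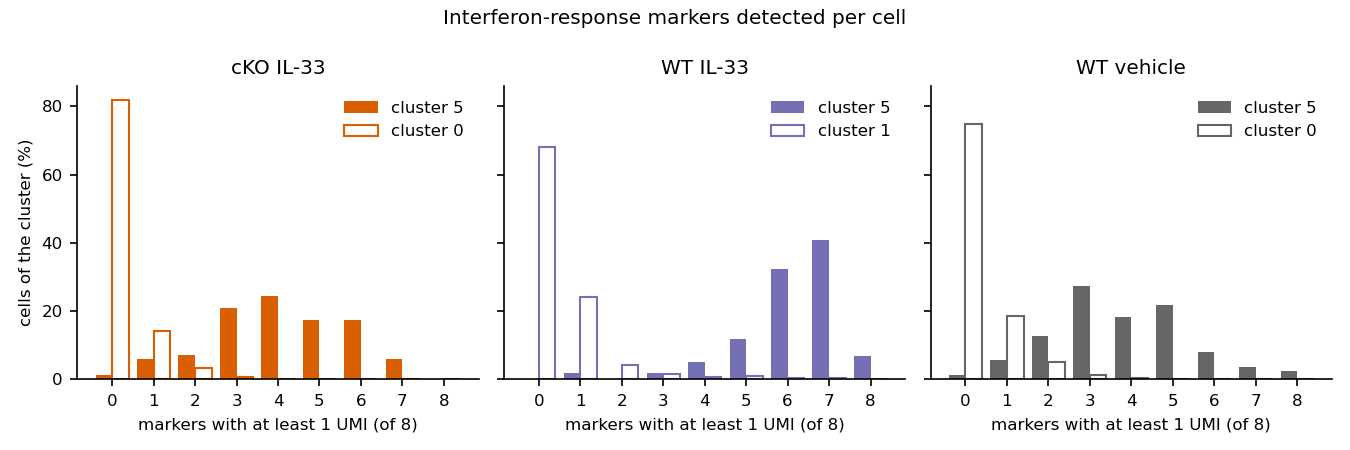
Percent of cells (vertical axis) by the number of the 8 interferon-response markers with at least 1 UMI (horizontal axis), for cluster 5 (filled bars) and its comparator (open bars) in each library, 1 library per group. Most comparator cells held none of the 8 (81.9%, 67.9% and 74.8%), while cluster 5 cells held a median of 4 in cKO IL-33, 6 in WT IL-33 and 4 in WT vehicle.

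At least 3 of the 8 markers were seen in 86.0%, 98.3% and 80.7% of cluster 5 cells, against 0.801%, 3.86% and 1.66% of comparator cells. With each cell thinned to 2100 UMIs the shares were 47.7%, 93.2% and 37.5%, against 0%, 1.49% and 0.151%. The bar plot of markers per cell shows WT IL-33 cells at higher numbers than those of the other libraries, although their median depth was the lowest of the 3. Some cells outside cluster 5 held at least 4 markers as well, 6 of 2601 in cKO IL-33, 46 of 2143 in WT IL-33 (45 of them in cluster 1) and 16 of 2621 in WT vehicle. Cluster 5 itself held 56, 57 and 47 such cells. A larger part of them thus lay outside cluster 5 in WT IL-33, which limits comparisons of cluster 5 shares and levels between libraries.

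A gene was called when it was at 50 CPM or more on either side and at least 2-fold apart. In cKO IL-33, 119 of 3704 genes were higher in cluster 5 than in cluster 0 (3.21%) and 4 were lower (0.108%). In WT IL-33, 201 of 3932 were higher in cluster 5 than in cluster 1 (5.11%) and 53 were lower (1.35%). In WT vehicle, 109 of 3644 were higher in cluster 5 than in cluster 0 (2.99%) and 4 were lower (0.11%). The 80 genes higher in all 3 libraries made up 33 antiviral effectors, 9 nucleic acid sensors, 6 guanylate binding proteins and immunity GTPases, 4 Schlafen genes and 4 STAT and IRF factors, among others.

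Of 53 antiviral effectors listed, 34 of 37 at 50 CPM or more were higher in cluster 5 of cKO IL-33, 38 of 40 in WT IL-33 and 34 of 36 in WT vehicle, and none was lower. Their median log2 ratios were 2.70, 3.26 and 2.22, beside -0.02, -0.07 and 0.03 over all genes tested. Ifitm3, a membrane protein that blocks viral entry, was at 772 against 29.2 CPM in cKO IL-33, 1356 against 54.6 in WT IL-33 and 484 against 41.1 in WT vehicle. Bst2 (tetherin), which holds virions at the cell surface, was seen in 46.1%, 41.5% and 57.7% of comparator cells already and was higher in cluster 5 by 5.40-fold (4.81 to 6.05), 7.95-fold (7.03 to 8.97) and 3.03-fold (2.70 to 3.39). Oasl1, of the oligoadenylate synthetase-like family, was at 119 against 1.31 CPM in cKO IL-33, 175 against 1.62 in WT IL-33 and 83.1 against 0.961 in WT vehicle. Rtp4, an interferon-induced inhibitor of viral replication, was at 269 against 27.4 CPM in cKO IL-33, 330.3 against 21.7 in WT IL-33 and 274 against 40.8 in WT vehicle. Trim30a, of the tripartite motif family, was higher by 4.04-fold, 6.18-fold and 3.54-fold. Both were also measurable in the comparators. Near-identical copies can share reads, so the separate levels of Ifit3 and Ifit3b, Slfn8 and Slfn9, and the Ifi200 genes are uncertain.

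Sensors of foreign nucleic acid were higher as well, 10 of 13, 11 of 14 and 10 of 13 at 50 CPM or more in cKO IL-33, WT IL-33 and WT vehicle, of 21 listed. The shares of all genes tested that were higher were 3.21%, 5.11% and 2.99%. Ddx58 (RIG-I), a sensor of viral RNA, was at 150.2 against 21.5 CPM in cKO IL-33, 237 against 17.8 in WT IL-33 and 113 against 22.6 in WT vehicle. Ifih1 (MDA5), its relative for long double-stranded RNA, was at 126 against 21.4 CPM in cKO IL-33, 243 against 20.5 in WT IL-33 and 125 against 24.0 in WT vehicle. Zbp1, a sensor of Z-form nucleic acid that can trigger necroptosis, was at 129 against 1.43 CPM in cKO IL-33, 208 against 3.34 in WT IL-33 and 76.0 against 4.56 in WT vehicle. For these 3 sensors every comparator lay below every cluster 5 level. Tlr7, the endosomal receptor for single-stranded RNA, was at 271 against 264 CPM in cKO IL-33, 167 against 68.2 in WT IL-33 and 201 against 166 in WT vehicle, and so passed 2-fold in WT IL-33 alone, where cluster 1 was lower than either cluster 0.

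Ifnb1 and Ifng, which encode interferon beta and gamma, had 0 UMIs in cluster 5 and in the comparator of every library, and most other interferon genes were not analysed here. Of 11 STAT and IRF factors, 4 of 10, 4 of 10 and 4 of 9 at 50 CPM or more were higher. Over all genes tested 3.21%, 5.11% and 2.99% were higher. Of 9 receptor and kinase genes, 6, 8 and 7 were at 50 CPM or more and 0 passed 2-fold. Ifnar1 was at 81.6 against 76.9 CPM in cKO IL-33, 105 against 112 in WT IL-33 and 67.4 against 74.6 in WT vehicle. Stat2, a signal transducer of the complex, was at 152 against 19.8 CPM in cKO IL-33, 286 against 22.9 in WT IL-33 and 129 against 17.8 in WT vehicle, higher by 7.68-fold, 12.5-fold and 7.26-fold. Irf7, the interferon-induced factor that amplifies the response, was at 173 against 4.76 CPM in cKO IL-33, 281 against 6.02 in WT IL-33 and 126 against 6.003 in WT vehicle. Irf9, the DNA-binding part of the complex, was 1.68-fold, 1.995-fold and 1.91-fold higher and passed 2-fold in none of the 3. Irf3, which acts before interferon is made, had ratios of 0.817, 1.13 and 0.829.

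Genes that restrain or carry Isg15 conjugation were part of the program. Usp18, which removes Isg15 and blocks the interferon receptor, was at 126 against 5.36 CPM in cKO IL-33, 345 against 11.3 in WT IL-33 and 91.7 against 6.48 in WT vehicle. Herc6, an Isg15 ligase in mice, was at 168 against 24.9 CPM in cKO IL-33, 415 against 17.8 in WT IL-33 and 140.4 against 25.6 in WT vehicle. Socs1, an inhibitor of the Janus kinases, reached 50 CPM in WT IL-33 alone, where it was 6.24-fold (4.12 to 9.17) higher. Over the 15 negative regulators listed, 2 of 7, 3 of 11 and 2 of 8 were higher in cluster 5. The shares higher over all genes tested were 3.21%, 5.11% and 2.99%.

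**Figure D2:**
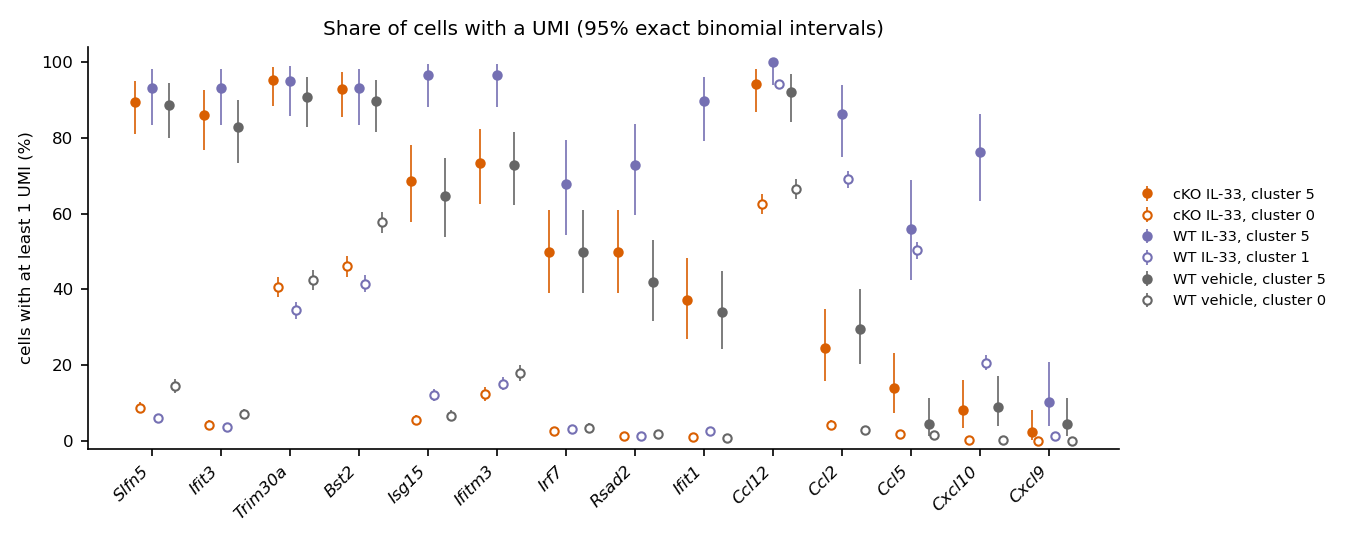
Percent of cells with at least 1 UMI (vertical axis) for 14 genes in cluster 5 (filled points) and its comparator (open points) of each library, with exact 95% binomial intervals over the cells of 1 library. Slfn5 and Ifit3 were seen in most cluster 5 cells of all libraries, while Cxcl10 was seen in 8.14% of them in cKO IL-33, 76.3% in WT IL-33 and 9.09% in WT vehicle.

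Cxcl10, a ligand of Cxcr3 that draws T cells and NK cells, was at 761 against 0.714 CPM in cKO IL-33, 7000.0 against 207 in WT IL-33 and 517 against 0.360 in WT vehicle. In cKO IL-33 its 466 UMIs came from 7 of 86 cells, and 2 cells held at least 50% of them. In WT vehicle its 361 UMIs came from 8 of 88 cells, and again 2 cells held at least 50%. In WT IL-33, 2395 UMIs came from 45 of 59 cells, beside 20.7% of cells in cluster 1. Among the cells that had it, the median was 51, 42 and 28.5 UMIs. The libraries differed more widely in the share of cells with Cxcl10 than in the UMIs of a positive cell.

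Cxcl9, the second Cxcr3 ligand, had 115 UMIs in 2 cells of cKO IL-33, 80 in 6 cells of WT IL-33 and 100 in 4 cells of WT vehicle. Neither Cxcl9 cell of cKO IL-33 had a Cxcl10 UMI, whereas 6 of 6 in WT IL-33 and 2 of 4 in WT vehicle had one. Those 2 WT vehicle cells were alike, with 11958 and 12016 UMIs, 46 and 42 of Cxcl9 and 87 and 71 of Cxcl10. Whether they were separate cells was not tested. Ccl5, a chemokine that attracts T cells and monocytes, was seen in 12 of 86, 33 of 59 and 4 of 88 cluster 5 cells. Ccl12, a mouse monocyte chemoattractant, was widespread instead, in 94.2%, 100% and 92.0% of cluster 5 cells against 62.7%, 94.2% and 66.5% of comparator cells, and stood at 2547 against 321 CPM in cKO IL-33, 9289 against 5818 in WT IL-33 and 1407 against 336 in WT vehicle. Of 11 such CC chemokines, 5 of 7, 1 of 9 and 5 of 7 at 50 CPM or more were higher in cluster 5 and 0 lower. Of all genes tested 3.21%, 5.11% and 2.99% were higher. The chemokines called higher were Ccl2, Ccl12, Ccl5, Ccl3 and Ccl4 in cKO IL-33 and WT vehicle. In WT IL-33 it was Ccl7, and cluster 1 was itself high there (Ccl3 at 3639 against 3672 CPM). In cKO IL-33, Ccl3 and Ccl4 were no longer higher without the 1 cell that held most of each, at log2 ratios of -0.149 and -0.642.

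A single WT vehicle cell of 9796 UMIs held 142 of 361 Cxcl10 UMIs of its cluster, 304 of 343 Ccl5 UMIs, 165 of 274 Rsad2 UMIs and 68 of 252 Isg15 UMIs, but 15 of 380 Ifit3 UMIs. In WT vehicle Rsad2 was at 158 CPM without its top cell, against 393 CPM with all cells. Ccl5 there was at 56.7 CPM without its top cell, against 492 CPM with all cells. Ifit3 was at 507 CPM without its top cell, against 545 CPM with all cells, so that the broadly seen gene moved little. In cKO IL-33, Ccl4 was at 6.66 CPM without its top cell, against 96.3 CPM with all cells.

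**Figure D3:**
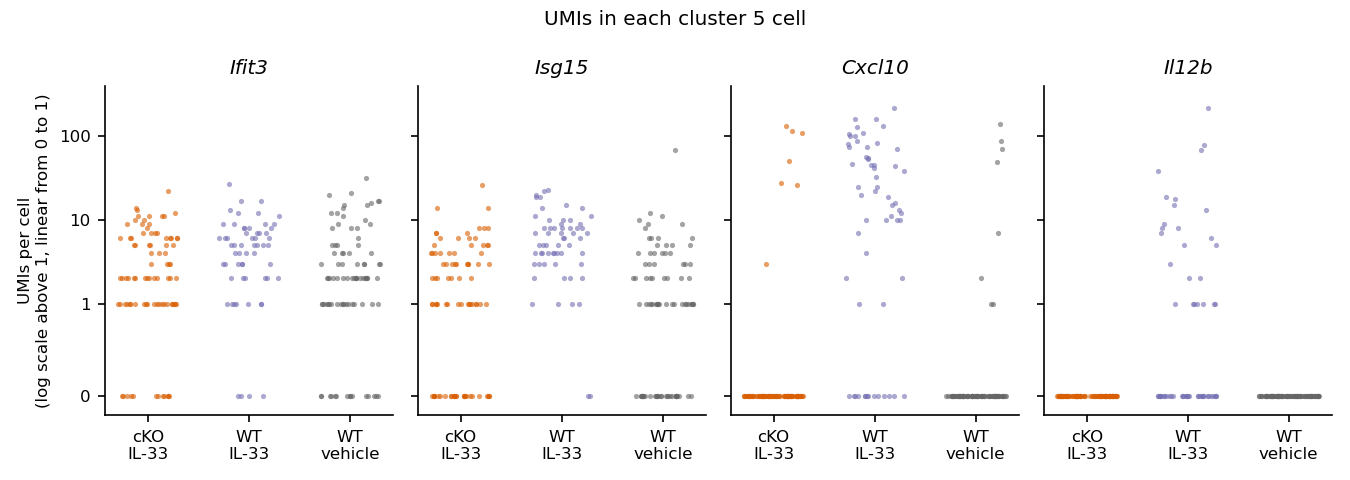
UMIs of 4 genes (vertical axis, logarithmic above 1 UMI and linear below) in each cluster 5 cell of the 3 libraries, 1 point per cell with horizontal spread for legibility. Ifit3 and Isg15 were seen in most cells of every library, Cxcl10 in 7 of 86, 45 of 59 and 8 of 88 cells, and Il12b in 25 of 59 cells of WT IL-33 and in 0 cells of the other libraries.

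Antigen presentation genes were higher in part. Tap1, which moves peptides toward class I molecules, was higher in cluster 5 by 3.03-fold (2.43 to 3.74), 6.82-fold (5.47 to 8.44) and 3.07-fold (2.51 to 3.74). Of 21 class I genes listed, 4 of 15, 8 of 20 and 2 of 16 at 50 CPM or more passed 2-fold, all higher. The guanylate binding proteins and immunity GTPases, which act on vacuoles that hold pathogens, passed 2-fold in 8 of 9, 9 of 10 and 9 of 10. Of all genes tested, 3.21%, 5.11% and 2.99% were higher. Gbp2 was at 81.6 against 3.09 CPM in cKO IL-33, 526 against 156 in WT IL-33 and 77.4 against 5.28 in WT vehicle, and the smaller ratio of WT IL-33 went with the higher level of cluster 1. Iigp1, an immunity GTPase, was at 155 against 2.26 CPM in cKO IL-33, 269 against 1.43 in WT IL-33 and 105 against 1.56 in WT vehicle.

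Microglial identity genes were near the level of the comparators. None of 20 homeostatic genes passed 2-fold within a library, with median log2 ratios of -0.13, -0.02 and -0.13. P2ry12, a purinergic receptor that guides microglial processes, was at 3038 against 3562 CPM in cKO IL-33, 862 against 725 in WT IL-33 and 3204 against 3808 in WT vehicle. Of 20 disease-associated genes listed, 2 of 10, 3 of 12 and 3 of 11 at 50 CPM or more were higher, and Lpl was lower in WT IL-33. Among all genes tested, 3.21%, 5.11% and 2.99% were higher. The calls of Spp1 in WT IL-33 and Lgals3 in WT vehicle rested on fewer than 5 cells. In WT vehicle 1 cell held 36 of the 45 Lgals3 UMIs. The median log2 ratios of the list were 0.10, -0.04 and 0.14, so the list as a whole stayed near the comparators. Among those higher, Axl, a receptor for dying cells, was at 81.6 against 23.4 CPM in cKO IL-33, 93.5 against 35.6 in WT IL-33 and 81.7 against 28.0 in WT vehicle. The growth factor Csf1 was 2.91-fold, 2.83-fold and 3.54-fold higher. Apoe stayed under 2-fold at 4746 against 2676 CPM in cKO IL-33, 2294 against 2306 in WT IL-33 and 4868 against 3338 in WT vehicle.

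Of the 8 monocyte markers, 4 had a UMI in cluster 5 of each library, at a summed 168, 108 and 183 CPM against 32.5, 15.3 and 59.0 CPM. Plac8 made up most of this, at 158 against 23.7 CPM in cKO IL-33, 96.5 against 2.87 in WT IL-33 and 159 against 52.7 in WT vehicle, while Ly6c2 and Chil3 were at 0. Of the 8 border macrophage markers, 3, 6 and 3 had a UMI, at a summed 336, 143 and 216 CPM against 257, 114 and 173 CPM. Among them Mrc1 was at 78.4 against 19.8 CPM in cKO IL-33, 5.85 against 5.64 in WT IL-33 and 65.9 against 29.8 in WT vehicle. The part of such cells in the Plac8 and Mrc1 levels was not tested.

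In WT IL-33, the NF-kB targets of cluster 5 stood near those of cluster 1. Of 28 such cytokines and regulators, 24 were at 50 CPM or more, and 0 were higher and 2 lower in cluster 5 (median log2 ratio -0.13). Il12b, a subunit of IL-12 and IL-23, was at 1555 against 1381 CPM and was seen in 42.4% against 46.7% of cells. A single cluster 5 cell held 218 Il12b UMIs and the next highest 79, so the cluster 5 level leaned on 1 cell. Il1b was at 1239 against 1320.4 CPM and Tnf at 479 against 433 CPM. Of the 25 Il12b cells of cluster 5, 23 also had an Ifit3 UMI and 21 a Cxcl10 UMI, beside 55 of 59 and 45 of 59 of all cluster 5 cells. Il12b had a UMI in 4.17% of the cells of cluster 0 of that library, and the part of free RNA and doublets in these counts was not tested. The 2 lower genes were Marco and Saa3, an acute-phase protein, at 32.2 against 213 CPM. Both calls depend on the comparator, since against the 144 cells of cluster 0 their log2 ratios were 1.93 for Marco and 3.5 for Saa3. Ch25h, which makes 25-hydroxycholesterol, was at 424 against 372 CPM.

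**Figure D4:**
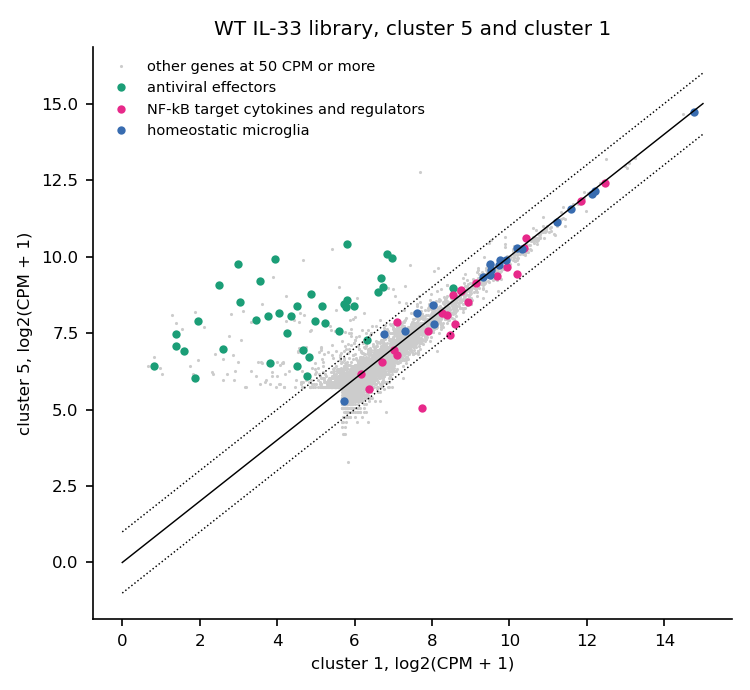
Level of each gene at 50 CPM or more on either side in cluster 5 (vertical axis) and in cluster 1 (horizontal axis) of the WT IL-33 library, as log2(CPM + 1), with lines at equal level and at 2-fold. Antiviral effectors lay above the line of equality (38 of 40 past 2-fold), whereas homeostatic genes (0 of 20) and NF-kB targets (2 of 24, both lower) lay near it.

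At 50 CPM or more, the genes lower in cluster 5 were Cln3, Mxi1, Uqcrc2 and Polr2j in cKO IL-33 and Ssbp2, Tm2d1, Hcfc1r1 and Pdcd4 in WT vehicle. Without cells over 10000 UMIs cKO IL-33 had 28 such genes and WT vehicle 15, in place of 4 each. With a minimum of 10 CPM, the genes lower in cluster 5 numbered 262, 582 and 124 in the 3 libraries, beside 334, 483 and 364 higher, so that in WT IL-33 the lower ones were then the more numerous. Against cluster 0 in place of cluster 1, WT IL-33 had 421 genes higher and 435 lower. The lowest ratios in WT IL-33 belonged to Saa3, Med19, Ier3, Fndc3b and Spg21, and Ier3, an early response gene, was at 29.2 against 110.4 CPM. Among cell death genes Xaf1, an antagonist of an apoptosis inhibitor, was higher in every library, at 196 against 24.8 CPM in cKO IL-33, 263 against 19.5 in WT IL-33 and 155 against 33.7 in WT vehicle. Of the cluster 5 cells, 57, 40 and 51 carried a G1 call (66.3%, 67.8% and 58.0%), against 67.4%, 59.6% and 59.2% of comparator cells. The median mitochondrial share of cluster 5 cells was 2.88%, 2.22% and 3.36% of UMIs, against 2.45%, 2.31% and 2.92%.

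Between libraries, cluster 5 of cKO IL-33 was set against that of WT vehicle. Of 3765 genes tested, 38 were higher (1.01%) and 26 lower (0.691%) in cKO IL-33, among them 0 of 37 antiviral effectors (median log2 ratio 0.24, beside -0.01 over all genes). These counts moved to 103 higher and 67 lower in G1 cells, to 87 and 90 without cells over 10000 UMIs and to 403 and 432 with a minimum of 10 CPM. The ratio of Ifit3 was 1.02 (0.875 to 1.18) and that of Isg15 1.07 (0.893 to 1.28). The highest ratios belonged to Xist and Tsix and the lowest to Ddx3y and Eif2s3y, which follow the sex calls. Ddx60, a partner of RIG-I, was the one sensor past 2-fold, with a ratio of 2.19 (1.48 to 3.30). Fkbp5, a glucocorticoid-induced chaperone, had a ratio of 2.54 (1.97 to 3.30), and its level was 328 CPM in cluster 0 of cKO IL-33 and 120.0 CPM in that of WT vehicle.

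Cluster 5 of WT IL-33 differed from both. It had 562 of 4102 genes higher (13.7%) and 519 lower (12.7%) than WT vehicle, while cKO IL-33 had 474 of 4082 genes higher (11.6%) and 534 lower (13.1%) than WT IL-33. These comparisons share the WT IL-33 cells. Of the NF-kB targets, 22 of 23 were lower in cKO IL-33 than in WT IL-33 (median log2 ratio -4.76, beside -0.01 over all genes), and 22 of 23 were higher in WT IL-33 than in WT vehicle (median 4.76, beside -0.02). Il12b had 0 UMIs in cKO IL-33, 532 in WT IL-33 and 0 in WT vehicle, so that WT IL-33 exceeded WT vehicle at least 362-fold with a floor of 3 counts.

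Antiviral genes also differed. Of 41 effectors, 1 was higher and 10 were lower in cKO IL-33 than in WT IL-33 (median log2 ratio -0.76). Among all genes tested there, 11.6% were higher and 13.1% lower. Of 40, 21 were higher and 1 was lower in WT IL-33 than in WT vehicle (median 1.06), beside 13.7% higher and 12.7% lower over all genes tested. In that comparison Cxcl10 was 13.5-fold (12.1 to 15.2) higher, Gbp2 6.80-fold (4.99 to 9.39), Ifit1 3.52-fold (2.78 to 4.46) and Isg15 3.34-fold (2.85 to 3.93). Ifit3 at 1.77-fold (1.52 to 2.05) and Slfn5 at 1.85-fold (1.58 to 2.15) stayed under 2-fold, as did all receptors and kinases.

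Ifi27l2a, a small interferon-induced protein, was the effector that differed the other way. It was at 362 against 107 CPM in cKO IL-33, 84.8 against 22.0 in WT IL-33 and 506 against 180.5 in WT vehicle, and had UMIs in 58 of 86, 13 of 59 and 69 of 88 cluster 5 cells. Within each library it was higher in cluster 5, while WT IL-33 had the lowest level in both clusters.

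**Figure D5:**
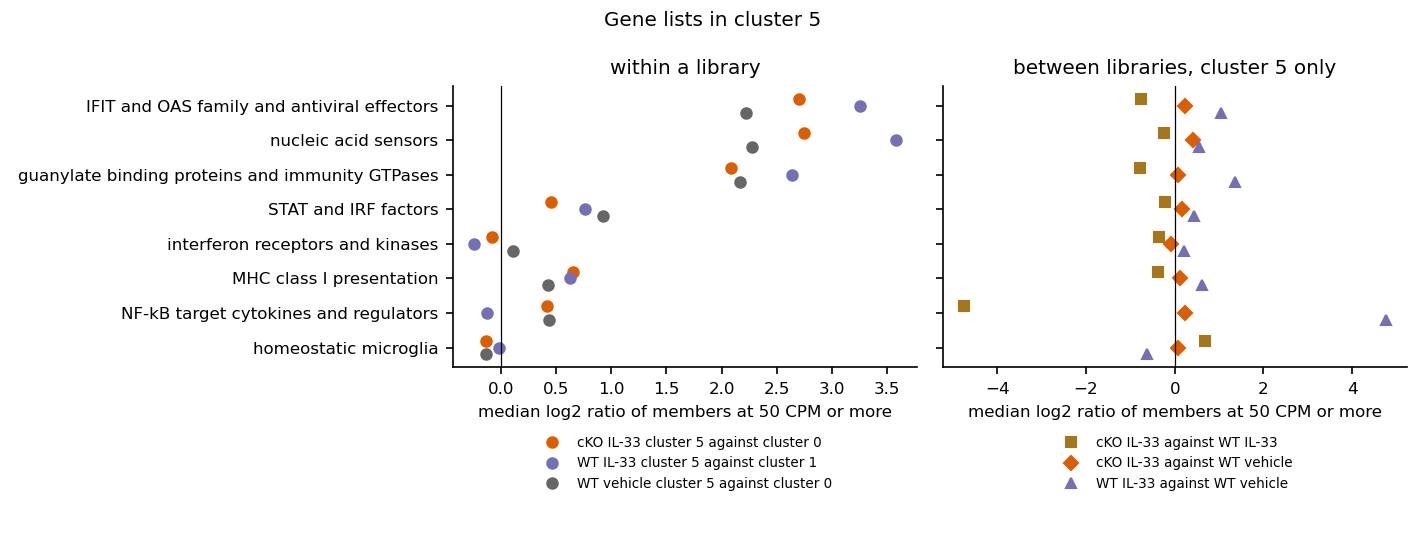
Median log2 ratio (horizontal axes) of the members of selected gene lists at 50 CPM or more, for cluster 5 against its comparator within each library (left) and for cluster 5 between libraries (right). Antiviral effectors had medians of 2.70, 3.26 and 2.22 within cKO IL-33, WT IL-33 and WT vehicle, and NF-kB targets a median of 4.76 in WT IL-33 against WT vehicle.

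Homeostatic genes set WT IL-33 apart in the other direction. Of 20, 7 were higher in cKO IL-33 than in WT IL-33 (median log2 ratio 0.68) and 7 were lower in WT IL-33 than in WT vehicle (median -0.62). Among all genes tested, 11.6% were higher in the first comparison and 12.7% lower in the second, with medians of -0.01 and -0.02. P2ry12 was 3.52-fold (3.11 to 4.00) higher in cKO IL-33 than in WT IL-33. Cd274, which encodes PD-L1, was at 4.90 against 2.86 CPM in cKO IL-33, 76.0 against 18.9 in WT IL-33 and 15.8 against 2.40 in WT vehicle. Mex3b, an RNA-binding protein with the highest ratio of cKO IL-33 over WT IL-33, was at 63.7 CPM in cKO IL-33, 0 in WT IL-33 and 58.8 in WT vehicle in cluster 5.

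Cells of both sex calls were in cluster 5 of WT IL-33, 31 of 1107 female-called cells (2.80%, 1.91 to 3.95%) and 28 of 1095 male-called cells (2.56%, 1.71 to 3.67%). Il12b was at 2683 CPM in male-called and 769 CPM in female-called cells of cluster 5. A single male-called cell of 11908 UMIs held 218 of the 377 Il12b UMIs of male-called cells. The difference in Il12b without that cell was not tested. Ccl3, an inflammatory chemokine, was at 6163 CPM in male-called and 1879.7 CPM in female-called cells. Isg15 was at 1601 CPM in male-called and 932 CPM in female-called cells, and Ifit3 at 1139 CPM in male-called and 838 CPM in female-called cells. These 4 were higher in male-called cells, though the intervals of Ifit3 overlapped (969 to 1329 CPM in male-called and 717 to 974 CPM in female-called cells). P2ry12 was lower, at 527 CPM in male-called and 1096 CPM in female-called cells. Oasl1 was at 149 CPM in male-called and 193 CPM in female-called cells, with overlapping intervals (92.5 to 228 and 138 to 264 CPM). Since the labels do not tie cells to animals, sex and animal cannot be told apart. Of the 59 cells, 4 held both Xist and Y-linked UMIs, as did 284 of the 1815 cells of cluster 1.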

How the data were processed

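Thalamic cells were isolated at low temperature over 22% Percoll, sorted for CD45 and captured on 10x Chip G (version 3.1 chemistry), per the labels' protocols. Cell Ranger 5.0, Seurat 4.0.1 and GRCm38 (mm10) appear in the submitters' processing notes, without roles. The authors deposited raw UMI counts of 20586 genes in 7598 cells and, per the file headers, each cell's library, sex call, phase, cluster number and percent of mitochondrial and ribosomal UMIs. Summed counts equalled the deposited totals in all 7598 cells. Doublets were not called, and the sources used here do not say whether they had been removed.

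UMIs were summed per cluster and library and scaled to CPM (Python 3.11.15, numpy 2.4.6, scipy 1.17.1, pandas 2.3.3). Log2 ratios used a pseudocount of 1 CPM, and bounds a floor of 3 counts per group for a 0. Named by rule were the 8 markers, the 10 highest and 5 lowest ratios within a library (10 and 10 between libraries) among called genes whose interval excluded 1 and that had UMIs in at least 5 cells, and up to 4 members per gene list. Other genes were singled out after their values were seen, and some genes are not reported here. The cluster, the 22 gene lists and the 16 marker lists were chosen with earlier results of these data known. The calls were run on simulated Poisson sums in which 200 genes were raised 4-fold. In each comparison 199 or 200 of these were called higher, beside 0 to 9 unchanged genes. The simulated sums held no variation between cells, so they cannot check calls that rest on a few cells. Alternatives changed the CPM minimum, the weighting of cells, the phases, the totals, the comparator and the cells kept.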

Additional observations from a re-analysis of the deposited data

How the results depend on the processing

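No paired analysis was possible because each group is 1 library and the labels give no shared replicate numbers. Of 88 counts of called genes, 55 stayed within 1.5 times and 33 moved. Of 4693 values of genes and list medians, 4260 stayed within the counting interval (0.5 on the log2 scale for a list) and 418 moved past it. The other 15, all of called genes, changed sign. Sign changes of genes not called and of list medians under 2-fold were not counted apart. The cause of these shifts was not tested. With a minimum of 10 CPM the genes called higher and lower in cluster 5 were 334 and 262 in cKO IL-33, 483 and 582 in WT IL-33 and 364 and 124 in WT vehicle. Between libraries they were 1357 and 1298 (cKO IL-33 over WT IL-33), 403 and 432 (cKO IL-33 over WT vehicle) and 1397 and 1453 (WT IL-33 over WT vehicle). Genes lower in cluster 5 of cKO IL-33 (4 as reported) were 9 with the mean of per-cell CPM, 19 in G1 cells, 9 without mitochondrial and ribosomal genes, 28 without cells over 10000 UMIs and 7 against all other cells. In WT IL-33 (53) they were 83 with per-cell CPM, 92 in G1 cells, 89 without cells over 10000 UMIs and, added after the data were seen, 177 in female-called cells without Y-linked UMIs and 254 in male-called cells. With cluster 0 in place of cluster 1, 421 were higher and 435 lower. In WT vehicle (4) they were 16 in G1 cells, 15 without cells over 10000 UMIs and 7 against all other cells. For cKO IL-33 over WT vehicle (38 higher, 26 lower), 44 were lower with per-cell CPM, 103 higher and 67 lower in G1 cells, 47 lower without mitochondrial and ribosomal genes, and 87 higher and 90 lower without cells over 10000 UMIs.

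The log2 ratios of called genes that changed sign were these. In cKO IL-33, Ccl4 was at -0.0143 without cells over 10000 UMIs and at -0.642 without its top cell, and Ccl3 at -0.149 without its top cell. In WT IL-33, Spp1 was at -0.937 in G1 cells, -1.56 in female-called cells without Y-linked UMIs and -1.39 without its top cell. Against cluster 0, Cd80 was at 0.565, Lpl at 1.47, Marco at 1.93 and Saa3 at 3.5. For cKO IL-33 over WT IL-33, Spp1 was at 1.4 in female-called cells without Y-linked UMIs. For cKO IL-33 over WT vehicle, Ccl4 was at 0.699 in G1 cells. For WT IL-33 over WT vehicle, H2-Ab1 was at -0.789 and Spp1 at -1.88 in G1 cells, and Spp1 at -1.95 without its top cell. The depth of cluster 5 limits what can be seen of genes under 50 CPM.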

Other observations

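Of the 80 genes higher in cluster 5 of all 3 libraries, 15 were in none of the lists, and they were chosen for that after their values were seen. Fcgr4, an activating receptor for IgG, was at 71.8 against 15.9 CPM in cKO IL-33, 184 against 52.7 in WT IL-33 and 71.7 against 17.7 in WT vehicle. Fgl2, a fibrinogen-like protein of immune cells, was at 116 against 13.2 CPM in cKO IL-33, 111 against 4.30 in WT IL-33 and 87.4 against 15.5 in WT vehicle. Tspo, the mitochondrial protein whose ligands are used to image microglia, was at 194 against 53.8 CPM in cKO IL-33, 193 against 41.2 in WT IL-33 and 142 against 64.7 in WT vehicle. Pml, the organizer of PML nuclear bodies, was at 60.4 against 9.88 CPM in cKO IL-33, 93.5 against 6.88 in WT IL-33 and 53.0 against 13.4 in WT vehicle. Nampt, an enzyme of NAD synthesis, was at 78.4 against 20.1 CPM in cKO IL-33, 129 against 22.5 in WT IL-33 and 73.1 against 20.1 in WT vehicle. By the rule that selected these 5 genes, their cluster 5 level was at least 2-fold above that of the comparator in each library.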
